A study of Mus musculus with 9 samples.

Results

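The libraries described here are those of unstressed melanocyte stem cells: the 3 vehicle libraries of a mouse RNA-seq series that holds 9 in all. They were chosen by their treatment label, and no measured value entered the choice. The series also holds 3 libraries from animals exposed to 5 Gy of ionizing radiation (IR) and 3 from animals given DMBA, a polycyclic aromatic hydrocarbon. All 3 groups share the tissue (skin), the sort by fluorescence and the genotype Dct-H2B-GFP KI/+, which is a heterozygous knock-in of a histone H2B and green fluorescent protein fusion at Dct. Total RNA was extracted on columns and made into libraries with a strand-marking SMARTer kit. The labels used here do not give the age, sex or strain of the animals, the nature of the vehicle or the time of sorting. They do not say whether each library came from its own animal, so the spread between libraries may be technical in part. Every cell of these libraries carries a modified Dct allele, and the labels do not say whether that allele still yields Dct RNA. The 3 vehicle libraries are named vehicle 1, 2 and 3, with 8156905, 7542491 and 7037979 counts.

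Melanocyte stem cells arise from the neural crest, rest in the lower permanent part of the hair follicle, and supply the pigment cells of each new hair. The transcription factor MITF, together with PAX3 and SOX10, directs the lineage, and the receptor tyrosine kinase KIT and the endothelin receptor EDNRB carry its main survival and growth signals. Melanin is made in melanosomes from tyrosine by tyrosinase and its relatives TYRP1 and DCT, and Dct is active early in the lineage, which is why its promoter is a common reporter for these cells.

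The start regions of 4 pigment genes and of a keratinocyte gene are shown because the levels below turn on these 2 kinds of transcript. The windows run from 250 bases before to 50 bases after the annotated start and are from RefSeq, build GRCm38.p6, each printed along its gene's own strand. Capitals mark TCATGTG, a form of the E-box recognised by MITF, or its reverse complement CACATGA. The windows are Dct at chr14:118052197-118052496 (minus strand), Tyrp1 at chr4:80833963-80834262 (plus), Tyr at chr7:87493463-87493762 (minus), Slc24a5 at chr2:125067877-125068176 (plus) and Krt5 at chr15:101712856-101713155 (minus).
Dct: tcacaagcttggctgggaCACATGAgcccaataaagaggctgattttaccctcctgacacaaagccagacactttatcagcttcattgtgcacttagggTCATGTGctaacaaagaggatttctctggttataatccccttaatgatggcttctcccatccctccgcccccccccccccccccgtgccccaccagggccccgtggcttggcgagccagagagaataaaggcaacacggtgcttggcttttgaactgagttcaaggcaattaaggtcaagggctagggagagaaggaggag
Tyrp1: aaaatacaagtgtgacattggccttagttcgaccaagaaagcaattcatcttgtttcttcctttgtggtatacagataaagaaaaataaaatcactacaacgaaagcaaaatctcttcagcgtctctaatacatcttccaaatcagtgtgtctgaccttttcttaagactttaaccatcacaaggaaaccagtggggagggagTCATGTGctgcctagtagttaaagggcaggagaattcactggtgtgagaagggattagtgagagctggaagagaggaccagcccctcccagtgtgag
Tyr: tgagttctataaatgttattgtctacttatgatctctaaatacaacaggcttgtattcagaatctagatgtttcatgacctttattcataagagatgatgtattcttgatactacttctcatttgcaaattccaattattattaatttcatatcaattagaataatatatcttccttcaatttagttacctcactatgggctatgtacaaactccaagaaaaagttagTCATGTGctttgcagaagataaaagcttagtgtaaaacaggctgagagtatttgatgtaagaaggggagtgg
Slc24a5: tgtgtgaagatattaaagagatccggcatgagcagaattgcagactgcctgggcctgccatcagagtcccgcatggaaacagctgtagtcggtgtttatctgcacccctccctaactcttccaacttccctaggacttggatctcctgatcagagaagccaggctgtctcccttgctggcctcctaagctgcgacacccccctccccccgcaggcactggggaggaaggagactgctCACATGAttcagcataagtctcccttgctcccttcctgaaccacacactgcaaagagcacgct
Krt5: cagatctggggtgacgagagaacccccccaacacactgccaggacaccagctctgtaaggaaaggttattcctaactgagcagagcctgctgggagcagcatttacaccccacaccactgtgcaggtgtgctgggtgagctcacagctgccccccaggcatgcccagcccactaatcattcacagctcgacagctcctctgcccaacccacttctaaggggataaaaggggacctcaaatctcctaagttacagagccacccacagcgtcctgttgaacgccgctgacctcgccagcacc
The motif began at positions -232 and -151 from the start of Dct, at -47 for Tyrp1, at -22 for Tyr and at -13 for Slc24a5 (negative positions lie before the start), and it was not found in the Krt5 window. Searched on both strands, it was in 1239 of 32851 windows (3.77%) and in a window of 1165 of 27025 genes (4.31%). Of 23 pigment genes with a window, 8 held it (34.8%). They were the 4 shown, Trpm1, Hps1, Mc1r and Slc7a11. It was in the windows of 0 of 14 lineage transcription factors, of 0 of 7 basal keratinocyte genes, and of 1 of 21 immediate early genes (4.76%). Pmel and Mlana, at 231 and 80.3 FPKM, were among the pigment genes without a window. Levels of the genes with and without the motif overlapped. Dct and Tyrp1, the highest of the 23, held it, as did Slc7a11, the lowest. The 8 genes with it had a median of 20.3 FPKM, with a range of 0.010 to 516, and the 15 without it had a median of 15.8 FPKM, with a range of 0.427 to 189.5. A match in letters says nothing of binding in these cells.

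Levels are given as FPKM, the authors' count scaled to exonic length and to the library total, which allows levels of different genes to be compared. At the depth of these libraries 1 FPKM of a 2000-base gene stood for 16.3, 15.1 and 14.1 counts in vehicle 1, 2 and 3. Of 55359 genes in the table, 23241 had a count in any vehicle library and 11320 reached 1 FPKM in all 3 (20.4%). Of 21877 protein-coding genes, 9584 reached 1 FPKM in all 3 (43.8%) and 3333 reached 10 FPKM in all 3 (15.2%). These shares are the reference for the list counts below. A mean of 100 FPKM or more was found for 253 genes and of 1000 FPKM or more for 12. The 100 highest genes of each library held 43.9% ± 0.376 of its FPKM sum (SD, n = 3).

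Small structural RNAs, mitochondrial RNAs and early-response transcripts stood at the top of that order. The highest was 7SK, the RNA that holds the elongation factor P-TEFb, with 24679, 26154 and 24183 FPKM in vehicle 1, 2 and 3. The mitochondrial ribosomal RNAs mt-Rnr2 and mt-Rnr1 followed at 20119 ± 1132 and 17011 ± 1128 FPKM (mean ± SD, n = 3). Malat1, a nuclear long noncoding RNA, had 7466, 9238 and 9291 FPKM and took 6.05% ± 0.726 of all counts. Among the 100 highest genes by mean, 9 were mitochondrial, 13 were shorter than 200 bases, 11 were processed pseudogenes and 11 were immediate early genes. Genes shorter than 200 bases took 9.53% ± 0.223 of the FPKM sum but only 0.245% ± 0.00275 of the counts. Their high ranks thus rest largely on division by a small length.

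**Figure D1:**
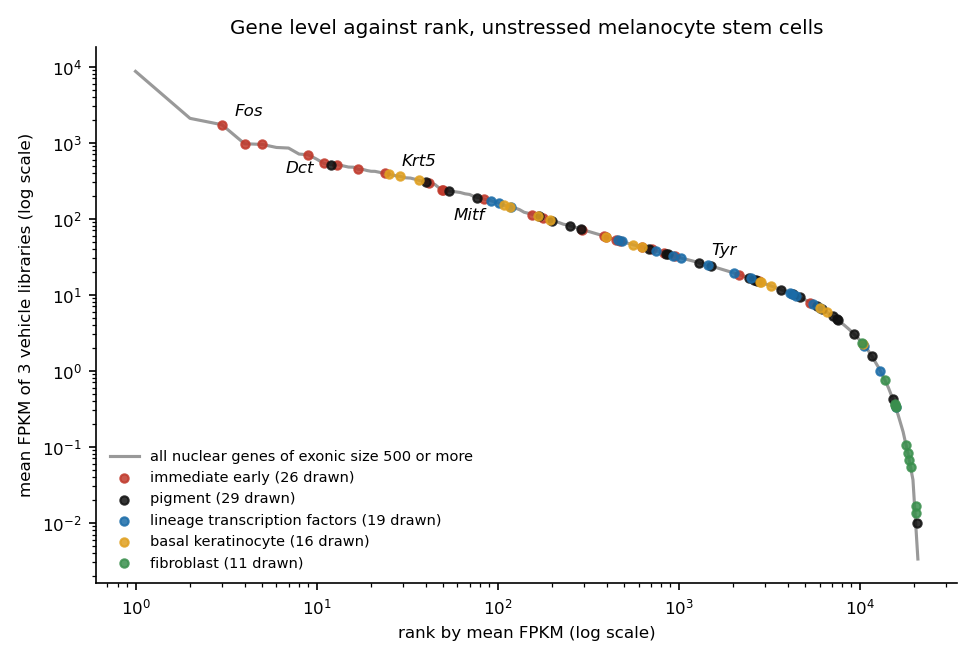
Mean FPKM of the 3 vehicle libraries (log axis) against rank (log axis) for nuclear genes with an exonic size of 500 bases or more. Points mark members of 5 lists on the curve. Fos at 1723 FPKM ranks 3 and Dct at 516 FPKM ranks 12, Krt5 lies between Dct and Mitf, and all 11 fibroblast genes drawn lie below 3 FPKM.

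Among nuclear genes with a symbol and an exonic size of 500 bases or more, Dct ranked 12. The genes above it were Malat1, the ribosomal RNA gene Rn18s, Fos, Jun, Fosb, Tpt1-ps3, Actb, Eef1a1, Jund, Lmna and Junb, and those that followed to rank 15 were Egr1, Apoe and Vim. Actb, which encodes cytoplasmic actin, had 1026, 680.1 and 842 FPKM in vehicle 1, 2 and 3. Lmna, which encodes the nuclear lamins A and C, had 645, 577 and 601 FPKM. The neighbours of Dct in the order were Junb and Egr1, and 6 of the 15 genes were immediate early genes. Apoe, a lipid carrier, had 577, 420.4 and 488 FPKM, and Eef1a1, a translation elongation factor, had 708 ± 25.9 FPKM. Vim, the intermediate filament of mesenchymal and neural crest derived cells, had 635.5, 453.5 and 344 FPKM, the widest spread of these 15, with a coefficient of variation (CV) of 30.8%.

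Genes with near-identical copies elsewhere in the genome had uncertain levels. Tpt1-ps3, a processed pseudogene of 519 bases, had 865 ± 40.2 FPKM, whereas its parent gene Tpt1 had 99.3 ± 7.34 FPKM. Gapdh, a glycolytic enzyme with many pseudogenes in the mouse, was at 5.34, 5.74 and 5.43 FPKM. Cytosolic ribosomal protein genes with the symbols Rpl and Rps together took 1.01% ± 0.0398 of counts. Mitochondrial genes were also uneven. Of the 13 that encode proteins, mt-Co1 had 1935 ± 219, mt-Cytb 1649 ± 198 and mt-Nd1 1142 ± 107 FPKM, while mt-Co3 had 4.12 ± 1.22 and mt-Atp6 6.43 ± 1.80 FPKM. How reads that match several places were counted is not stated in the labels, and its part in these low values was not tested, so they are not read as low expression. Tpt1 and Gapdh were picked after their values were seen.

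The label of the sorted cells was set beside 5 marker genes of the lineage, and all 5 were abundant. Their mean levels lay above those of 99.3 to 99.9% of the genes with any count. The cells were sorted by fluorescence from animals with a reporter at Dct, so the level of Dct is no independent check. The 5 genes mark the lineage and do not tell its stem cells from its other cells. Dct encodes dopachrome tautomerase. It had 515, 510.3 and 522 FPKM in vehicle 1, 2 and 3, and 24784, 22691 and 21654 counts. Its CV was 1.13%, against 0.659% from counting alone, and its rank among all genes was 31, 31 and 27. The table places Dct on chromosome 14 at 118250202 to 118289656, minus strand, with 5895 exonic bases, in coordinates of a build that the table does not name. On the same coordinates Tyrp1 spans 80752360 to 80769956 on chromosome 4 (plus strand), Kit 75735576 to 75817382 on chromosome 5 (plus), Mitf 97784013 to 97998310 on chromosome 6 (plus) and Sox10 79039108 to 79049440 on chromosome 15 (minus). Tyrp1, a melanosomal oxidase, had 268, 324 and 326 FPKM, lower in vehicle 1 than in the other libraries. Kit had 179, 172 and 171 FPKM with a CV of 2.62%. Mitf had 175, 164 and 143 FPKM, and Sox10 had 158, 157 and 117 FPKM. Vehicle 3 held the lowest value of Kit, Mitf and Sox10 and the highest of Dct and Tyrp1.

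The pigment list covered melanin synthesis and melanosome genes, 29 of which were in the table. Of these, 27 reached 1 FPKM in all 3 libraries and 17 reached 10 FPKM in all 3, with a median member of 15.8 FPKM against 0.973 FPKM for all protein-coding genes. Their FPKM summed to 1841, 1882 and 1928 in vehicle 1, 2 and 3, which was 0.615% ± 0.0172 of the FPKM sum, and Dct alone made 27.4% of the list's sum. Pmel, which builds the fibrils of the melanosome, had 205, 217 and 271 FPKM. Gpnmb, a related melanosomal glycoprotein, had 223, 172 and 173 FPKM. Myo5a, the myosin motor that carries melanosomes, had 107.5, 104 and 110.3 FPKM. The melanosome transport proteins that bind it followed, with Mlph at 94.3 ± 12.5 and Rab27a at 72.3 ± 3.67 FPKM, and Mlana, a melanosome protein, had 80.3 ± 8.68 FPKM.

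Tyrosinase, which carries out the rate-limiting step of melanin synthesis, stood far below its relatives. Tyr had 23.3, 23.2 and 32.1 FPKM in vehicle 1, 2 and 3 and ranked 1486 among all genes, where Tyrp1 ranked 71. The ion exchanger Slc24a5 and the transporter Slc45a2 were at 23.9 ± 4.11 and 15.5 ± 0.387 FPKM. Oca2, a melanosomal anion transporter, had 0.740, 0.070 and 0.470 FPKM, from 24, 2 and 13 counts. Slc7a11, the cystine transporter needed for yellow pigment, had 3 counts, all of them in vehicle 2. Mc1r, the receptor for melanocyte stimulating hormone, had 2.83, 4.12 and 7.34 FPKM. Beyond the 5 highest members of the list, the pigment genes named here and with the motif above lie outside the rule for named genes and were picked after their values were seen. The list thus ran from genes with next to no reads to the level of Dct in the same sorted cells.

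**Figure D2:**
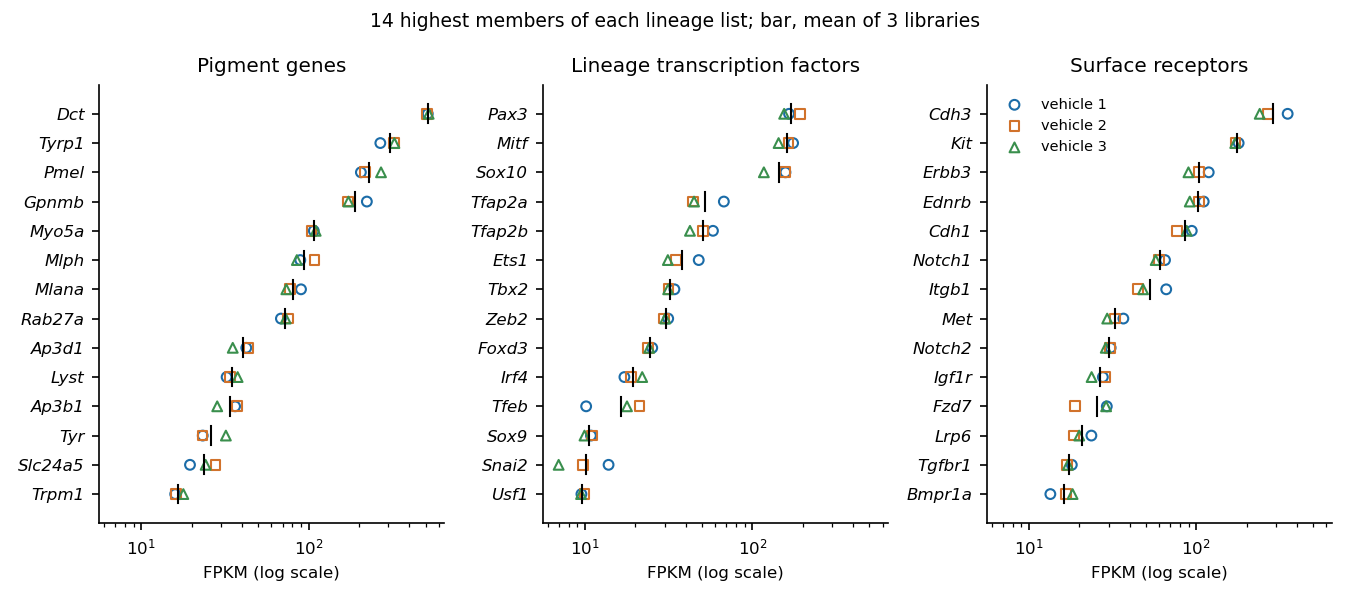
FPKM (log axis) of the 14 highest members of the pigment, lineage transcription factor and receptor lists. Symbols are the vehicle libraries and the bar is their mean. Dct lies at 510.3 to 522 FPKM in all 3 libraries, Tyr at 23.2 to 32.1, and the receptors from Cdh3 to Itgb1 are highest in vehicle 1.

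Of 20 transcription factors of the lineage, 17 reached 1 FPKM in all 3 libraries and 11 reached 10 FPKM. Of all protein-coding genes, 43.8% and 15.2% did. The factors summed to 843, 817 and 702 FPKM in vehicle 1, 2 and 3. Pax3, which acts upstream of Mitf, was the highest at 166, 192 and 155 FPKM. Pax3 and Mitf changed order between libraries, with Mitf higher in vehicle 1, so their order is within the spread. Sox10 was the lowest of the 3 in each library, though its range overlapped theirs. The AP-2 factors came next. Tfap2a had 67.5, 44.4 and 44.8 FPKM and Tfap2b had 58.1, 50.9 and 42.4 FPKM. Foxd3, which marks the early neural crest, was at 24.4 ± 0.782 FPKM. Lef1, the nuclear partner of beta-catenin in WNT signalling, was at 1.00 ± 0.267 FPKM with 63, 87 and 51 counts. Msx2 had 0 counts in all 3 libraries, where a count of 0 allows up to 3 counts over the group, or 0.132 CPM (the count scaled to the library total alone), for counting error only. Foxd3 and Lef1 are outside the rule and were picked after their values were seen.

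Among 798 genes that the deposited annotation gives as transcription factors, 436 reached 1 FPKM in all 3 libraries, where 43.8% of all protein-coding genes did. The 10 highest were Fos, Jun, Fosb, Jund, Junb, Egr1, Atf3, Nr4a1, Zfp36l1 and Klf4, which ran from 1723 ± 169.5 FPKM for Fos to 239 ± 21.4 for Klf4. Pax3 ranked 13, Mitf 15 and Sox10 16 in that order. Of the 10 highest, 9 are on the immediate early list, whereas other members of that list, such as Klf6 at 113 ± 17.9 FPKM and Fosl1 at 7.89 ± 5.72 FPKM, lay below Pax3, Mitf and Sox10. Klf6 and Fosl1 were picked after their values were seen.

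The receptor list held 35 surface proteins of melanocytes, of which 29 reached 1 FPKM in all 3 libraries and 16 reached 10 FPKM. The shares of all protein-coding genes were 43.8% and 15.2%. Cdh3, which encodes P-cadherin, was the highest, with 352, 268 and 239.6 FPKM in vehicle 1, 2 and 3. Kit came second. Erbb3, the neuregulin receptor, had 119, 104 and 89.9 FPKM, and Ednrb had 111, 103 and 91.5 FPKM. Cdh1, which encodes E-cadherin and joins melanocytes to keratinocytes, had 94.1, 76.6 and 87.8 FPKM. Basal keratinocytes also express Cdh1 and Cdh3, and keratinocyte transcripts were present, so the source of their reads was not separated here. Nor was it separated for the other receptors or for the lineage transcription factors. Notch1, whose signal maintains these stem cells, had 65.1, 60.1 and 57.3 FPKM. Ngfr, a neural crest and Schwann cell receptor, had 1.64, 0.420 and 1.11 FPKM from 46, 11 and 27 counts, and Cd34, a marker of hair follicle stem cells, had 0.787 ± 0.171 FPKM. Notch1, Ngfr and Cd34 were picked after their values were seen.

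Part of the neural crest and Schwann cell list was present and part was at or near 0. Of its 20 genes, 10 reached 1 FPKM in all 3 libraries, near the share of all protein-coding genes (43.8%). At 10 FPKM there were 6, against 15.2% of all protein-coding genes. Egr2, a Schwann cell and immediate early factor that is on both lists, had 58.4, 61.9 and 54.2 FPKM. Pmp22, which encodes a membrane protein of Schwann cells, had 43.3 ± 4.97 FPKM, and the adhesion molecule Ncam1 had 29.2 ± 2.06 FPKM. Other members were lower. Mbp, which encodes myelin basic protein, had 1.13 ± 0.756 FPKM, Sox2, a factor of neural progenitors, had 4 counts in all, and Gap43, a growth cone protein, had 0. S100b varied most, with 134, 23 and 10 counts, or 11.1, 2.05 and 0.960 FPKM in vehicle 1, 2 and 3. Mbp, Sox2 and S100b were picked after their values were seen.

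Transcripts listed as markers of basal keratinocytes summed to about as much as the pigment list, a comparison that depends on which genes each list holds. Markers of differentiated epidermis, given further below, were left out of it. Some basal markers, such as Dst and Itga6, are known in other cells too, and which cells the reads came from was not tested. All 16 basal keratinocyte markers reached 1 FPKM in all 3 libraries and 13 reached 10 FPKM. Krt5, the type II keratin of the basal layer, had 372, 315 and 479 FPKM in vehicle 1, 2 and 3. Krt14, its type I partner, had 346, 325 and 410.1 FPKM. Krt15, a keratin of the basal layer and the follicle bulge, had 339, 224 and 414 FPKM. Reads of Krt14 can be shared with its close relatives Krt16 and Krt17, which had 1.63 ± 1.23 and 77.8 ± 25.5 FPKM. Krt16, Dst and Itga6 were picked after their values were seen. In bulk RNA, fewer cells of a type and less RNA per cell cannot be told apart, so these levels give no cell fraction. The desmosome gene Dsp had 139, 122 and 187 FPKM and Perp had 124, 125 and 183 FPKM, each highest in vehicle 3. The markers summed to 1723, 1434 and 2170 FPKM. The pigment list divided by the basal keratinocyte list was 1.07, 1.31 and 0.889, a mean of 1.09 ± 0.212 (SD, n = 3), and without Dct the mean was 0.791. By medians the order was the other way, at a ratio of 0.309, since the median pigment gene had 15.8 FPKM and the median basal marker 51.7 FPKM.

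Markers of differentiated epidermis were present at a lower summed level than basal ones and differed in kind between libraries. Of 17, 14 reached 1 FPKM in all 3 libraries, and they summed to 1061, 983 and 1117 FPKM. Krt10, a keratin of the spinous layer, had 353, 290.1 and 384 FPKM. Krt77 had 218 ± 25.4, Lgals7 151 ± 24.2 and Krt1 88.2 ± 18.6 FPKM, and Calm4 had 67.9 to 91.2 FPKM. The genes of the outermost layers were low, and several of them, but not all, were highest in vehicle 2. Flg2, a filaggrin relative of the cornified layer, had 38, 1273 and 128 counts, or 0.220, 8.11 and 0.870 FPKM. Cdsn, an adhesion protein of the cornified layer, had 3.80, 20.2 and 6.15 FPKM, and Lor, which encodes the envelope protein loricrin, had 2, 63 and 0 counts, each highest in vehicle 2. Flg, which encodes filaggrin, had 10, 4 and 10 counts, lowest in vehicle 2. The envelope protein gene Ivl had 8.10, 9.59 and 6.28 FPKM and the protease gene Casp14 had 1.28, 2.33 and 2.26 FPKM, without a library that stood apart to that degree. Spink5 had 4.71, 19.6 and 7.57 FPKM, Dsc1 3.18, 11.7 and 8.96, and Sbsn 24.4, 44.1 and 29.6, also highest in vehicle 2. Of the 14 markers with a mean count of 100 or more, 3 were highest in vehicle 1, 6 in vehicle 2 and 5 in vehicle 3. Cdsn, Lor, Flg, Ivl, Casp14, Spink5, Dsc1 and Sbsn were picked after their values were seen.

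**Figure D3:**
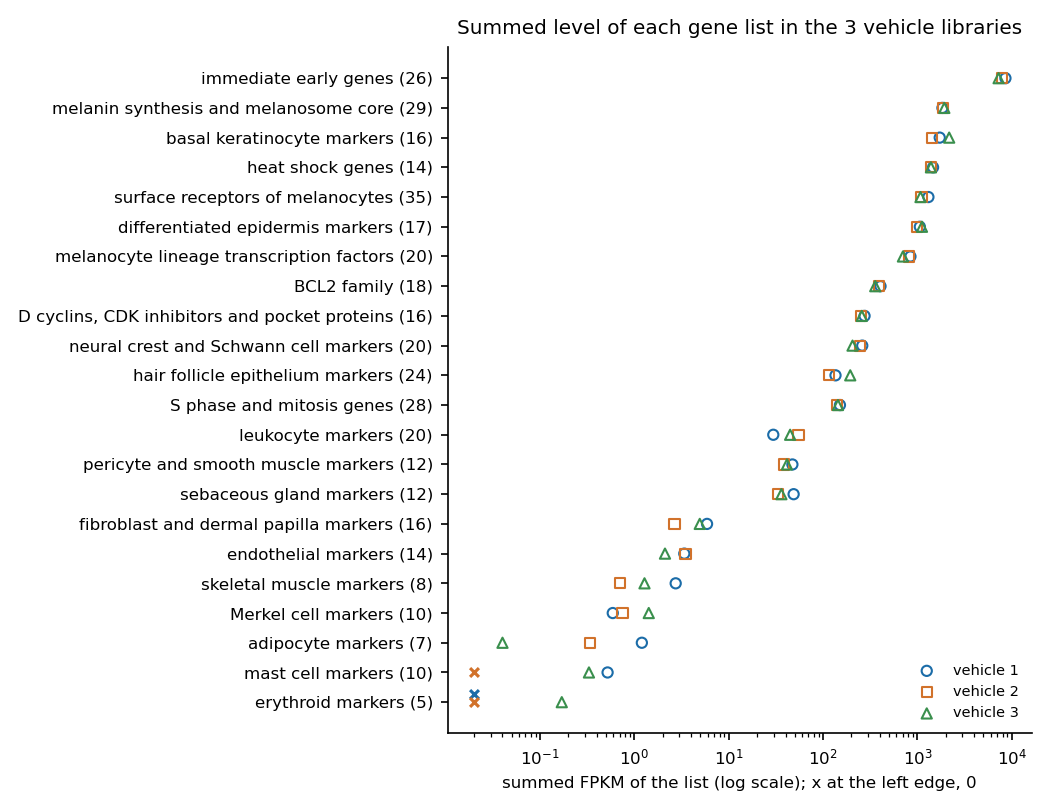
Summed FPKM (log axis) of each of the 22 gene lists in the vehicle libraries, with the number of genes in the table in brackets. Crosses at the left edge are libraries at 0. Immediate early genes sum to 7250 to 8565 FPKM, pigment and basal keratinocyte lists to 1434 to 2170, and fibroblast, endothelial, mast, Merkel and erythroid lists to less than 6.

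Markers of other parts of the hair follicle were low as a list. Of 24 follicle epithelium genes, 8 reached 1 FPKM in all 3 libraries, where 43.8% of all protein-coding genes did. The median member had 0.295 FPKM, against 0.973 FPKM for all protein-coding genes. The list summed to 135, 116 and 194 FPKM. Krt17 and Krt79, which are expressed in the outer root sheath and the infundibulum, made most of that. Gata3, Cd200 and Plet1 had 13.6 ± 2.26, 5.72 ± 0.859 and 5.11 ± 0.807 FPKM. Keratins of the hair shaft and inner root sheath were at or near 0. Krt25, Krt27, Krt28, Krt31, Krt34, Krt36, Krt71, Krt73, Krt81 and Krt86 had 0 counts in all 3 libraries. Of all 55359 genes, 23241 had a count in any vehicle library. Krt33a and Krt35 had 11 and 2 counts over the 3 libraries, and Krt75 and Tchh, also on the list, had 56 and 96. Krt33a, Krt35, Krt75 and Tchh were picked after their values were seen. Sebaceous gland markers summed to 48.7, 33.3 and 36.1 FPKM. Scd1, a fatty acid desaturase that many cells express, made 50.2% of that, Pparg had 8.12 ± 1.24 and Dgat2 5.54 ± 1.19 FPKM, Scd3 and Soat1 were below 2 FPKM, and Awat1, a wax ester enzyme of the gland, had 0 counts.

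Cells of the dermis, vessels and blood left little RNA. The 16 fibroblast and dermal papilla markers summed to 5.89, 2.66 and 4.93 FPKM. Col6a1 made 52.2% of that, and Lum, Mfap5, Dpt, Crabp1 and Twist2 had 0 counts in all 3 libraries. The other 4 highest were Fbln1, Col1a1, Col6a2 and Col5a1, each with a mean below 1 FPKM. The 14 endothelial markers summed to 3.38, 3.49 and 2.11 FPKM, of which Esam made 78.6%. Cdh5, Kdr, Emcn, Cldn5, Erg and Sox17 had 0 counts, and Pecam1 had 15, 49 and 1.

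Pericyte and smooth muscle markers summed to 47.3, 38.7 and 41.4 FPKM, but 2 genes carried the sum. Mylk, myosin light chain kinase, had 20.9, 18.9 and 17.8 FPKM and Cspg4, the NG2 proteoglycan, had 22.6, 15.2 and 17.0 FPKM. The other members were low or absent. Tagln, Notch3 and Myh11 had 1.77 ± 1.61, 1.67 ± 1.04 and 1.05 ± 0.401 FPKM, and Rgs5, Acta2, Des and Abcc9 had 0 counts. Both Mylk and Cspg4 are also known outside mural cells, and Cspg4 is known as a melanoma antigen. Leukocyte markers summed to 29.7, 54.8 and 44.8 FPKM. Cd68, a lysosomal glycoprotein, made 75.7% of that with 21.3, 40.1 and 36.5 FPKM. Cd74 and the class II genes H2-Ab1 and H2-Aa, which antigen-presenting cells express, had 6.42 ± 3.59, 1.19 ± 0.887 and 1.01 ± 0.878 FPKM, and Coro1a had 38 counts, all in vehicle 2. The general leukocyte marker Ptprc had 0 counts in all 3 libraries, as did Cd52, Tyrobp, Lyz2, Adgre1 and Trdc. The macrophage receptor gene Csf1r had 1, 5 and 0 counts and Itgam had 1, 0 and 0, and both were picked after their values were seen.

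Mast cells are another cell of the skin that carries KIT on its surface. Of 10 mast cell markers, Mcpt4, Cma1, Tpsb2, Tpsab1, Cpa3, Fcer1a and Ms4a2 had 0 counts in all 3 libraries, and the list summed to 0.520, 0 and 0.330 FPKM. The remaining 3, Gata2, Mrgprb2 and Hdc, had 25, 3 and 3 counts over the 3 libraries and were named after their values were seen. Of 10 Merkel cell markers, Krt8, Krt20, Atoh1, Insm1 and Isl1 had 0 counts, and Krt18 had 1. The 5 erythroid genes Hba-a1, Hba-a2, Hbb-bs, Hbb-bt and Alas2 had a single count between them. Skeletal muscle markers summed to 2.74, 0.710 and 1.28 FPKM, led by Atp2a1 at 0.597 ± 0.564, and adipocyte markers to 1.20, 0.340 and 0.040 FPKM, with Fabp4, Plin1, Adipoq and Cidec at 0 counts.

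Immediate early genes, which cells switch on within minutes of a signal, of handling or of dissociation, were the most abundant list. All 26 reached 1 FPKM in all 3 libraries and 25 reached 10 FPKM, with a median member of 108 FPKM. They summed to 8565, 7803 and 7250 FPKM, which was 2.57% ± 0.212 of the FPKM sum, and 11 of them were among the 100 highest genes. Fos had 1915, 1662 and 1593 FPKM, Jun 1064, 929 and 912, and Fosb 1071, 913.5 and 861 FPKM. Jund and Junb, further AP-1 subunits, had 693 ± 89.5 and 532 ± 73.2 FPKM. Egr1, a zinc finger factor of the same response, had 577, 518.5 and 449.7 FPKM. These levels are those of animals given neither IR nor DMBA. Whether the response was present in the animal or arose during the sort was not tested. Heat shock genes, some of which also respond to handling, summed to 1464, 1400 and 1391 FPKM. Hsp90ab1, at 475 ± 17.2 FPKM, made 33.5% of that, so the sum is no measure of such a response. Hspa8 had 200.6 ± 14.2, Hsp90aa1 146 ± 17.6, Hspa5 132 ± 19.2 and Bag3 118 ± 9.80 FPKM. The inducible Hspa1a and Hspa1b, near-identical copies whose reads can be shared, had 76.6 ± 4.24 and 101 ± 13.4 FPKM and were picked after their values were seen.

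Genes of S phase and mitosis lay near the level of protein-coding genes as a whole. Of 28 proliferation genes, 10 reached 1 FPKM in all 3 libraries, where 43.8% of all protein-coding genes did. The median member had 1.42 FPKM, against 0.973 FPKM for all protein-coding genes. Pcna, the replication clamp that repair also uses, had 48.2, 39.9 and 42.2 FPKM. The helicase subunits Mcm7, Mcm4, Mcm6 and Mcm3 had 25.4 ± 3.40, 21.2 ± 4.47, 10.9 ± 2.22 and 7.48 ± 2.43 FPKM. Mki67, the proliferation antigen, had 4.18, 4.06 and 9.97 FPKM, and Top2a, the mitotic topoisomerase, had 162, 13 and 238 counts. The 9 members with a mean count of 100 or more were highest in vehicle 1 for 2, in vehicle 2 for 4 and in vehicle 3 for 3, so no library led these 9. Mitosis genes other than Mki67 and Top2a had lower counts. Several were lowest in vehicle 2, such as Cenpf at 64, 5 and 146 counts, Ccnb2 at 76, 1 and 34, and Kif11 at 104, 40 and 80. Others did not follow, such as Cdk1 at 13, 32 and 9 counts and Ccna2 at 42, 46 and 44. A list of 16 D cyclin, D cyclin kinase, inhibitor and pocket protein genes, which holds both drivers and brakes of the cycle, had a median member of 10.4 FPKM. Cdkn1a, which encodes p21, had 64.9, 52.0 and 61.6 FPKM. Cdkn1b, which encodes p27, had 41.9, 41.5 and 37.8 FPKM, and Rbl2, a pocket protein of resting cells, had 48.8 ± 1.93 FPKM. Cdkn2d and Rb1 had 26.0 ± 6.11 and 15.6 ± 0.459 FPKM. The D cyclin genes Ccnd3, Ccnd2 and Ccnd1 had 13.2 ± 2.96, 10.7 ± 3.65 and 3.28 ± 0.764 FPKM. The inhibitor genes Cdkn2c and Cdkn2b had 5.28 ± 1.80 and 0.740 ± 0.750 FPKM, and Cdkn2a, the p16 and p19 locus, was at 0 counts in vehicle 1 and 2 and at 2 in vehicle 3. Mki67, Top2a, Cenpf, Ccnb2, Kif11, Cdk1, Ccna2, the D cyclins and these last 3 inhibitors were picked after their values were seen.

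In the BCL2 family the highest member was Mcl1, an inhibitor of cell death, with 249.6, 235 and 216 FPKM in vehicle 1, 2 and 3, or 60.7% of the family's sum. Bcl2, on which melanocyte stem cells depend for survival in the mouse, had 58.3, 50.7 and 47.7 FPKM. Members on either side of the family lay lower. Of those that promote cell death, Bcl2l11, which encodes BIM, had 15.6 ± 1.69, Bax 13.3 ± 1.19 and Bmf 12.7 ± 5.23 FPKM. Of those that inhibit it, Bcl2l2 and Bcl2l1 had 10.3 ± 0.423 and 9.35 ± 0.864 FPKM, and they were picked after their values were seen. Hrk, Bcl2a1a and Bcl2a1d had 0 counts, and the Bcl2a1 copies are near-identical, so reads of one may be missing or placed with another. The order of Mcl1 and Bcl2 was the same in each library and their values did not overlap.

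Replicate libraries differed by more than counting alone gives. For 8550 genes with a mean count of 100 or more, the median CV of CPM was 18.6%, against 5.31% from counting alone, and 1400 of them (16.4%) had a highest library at least 2 times the lowest. The CV was lower at greater depth, though by less than counting error. It was 27.1% for 3707 genes of 100 to 300 counts, against 7.57% from counting, and 9.20% for 298 genes of 3000 counts or more, against 1.49%. The biological coefficient of variation, edgeR's estimate of the spread beyond counting over 12381 genes, was 32.5%. Its trend with level was 49.0% at an average log2 CPM of 3 and 14.1% at 9, so 32.5% does not hold for all genes. Pearson correlations of log2 CPM across the 8550 genes were 0.925 for vehicle 1 with 2, 0.939 for 1 with 3 and 0.924 for 2 with 3. They describe pairs of libraries, with no p, since genes are not independent replicates. No library was a copy of another, since chi-square per degree of freedom was 18.6 to 21.6.

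**Figure D4:**
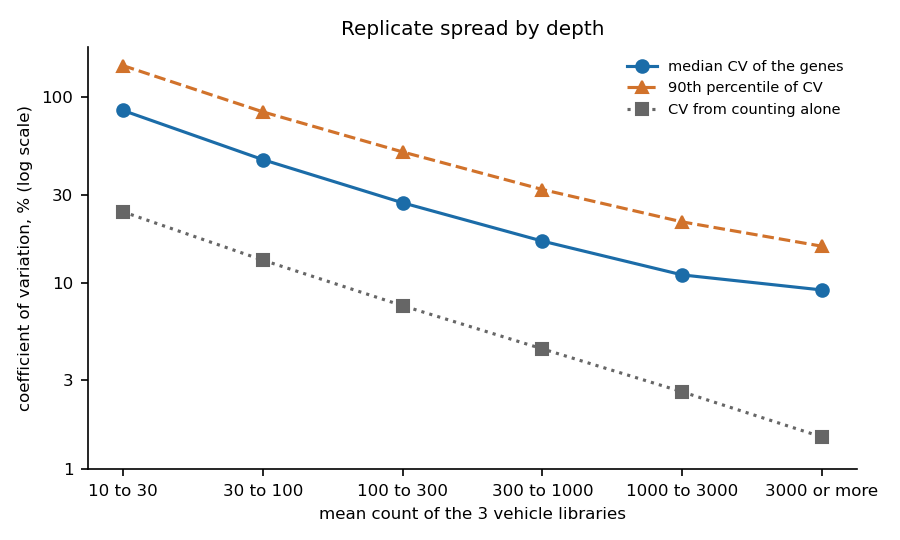
Coefficient of variation in percent (log axis) across the 3 vehicle libraries, for genes in bins of mean count. The median is 9.20% in the deepest bin and 85.1% in the shallowest, and lies above the counting line in each bin.

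The gene groups differed in their spread and in the library that held their highest value. At mean counts of 100 or more, the median CV was 14.8% for 24 pigment genes, 11.3% for 17 lineage transcription factors, 15.4% for 29 receptors, 21.1% for 16 basal keratinocyte markers, 26.1% for 14 markers of differentiated epidermis and 11.9% for 26 immediate early genes. Over all 8550 genes the highest value was in vehicle 1 for 35.9%, in vehicle 2 for 34.2% and in vehicle 3 for 29.9%. Basal keratinocyte markers were highest in vehicle 3 for 13 of 16 and in vehicle 2 for 0. Receptors were highest in vehicle 1 for 21 of 29, and lineage transcription factors for 10 of 17. Pigment genes were highest in vehicle 3 for 12 of 24. Members of a list share libraries and are not independent, so these counts describe the 3 libraries.

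**Figure D5:**
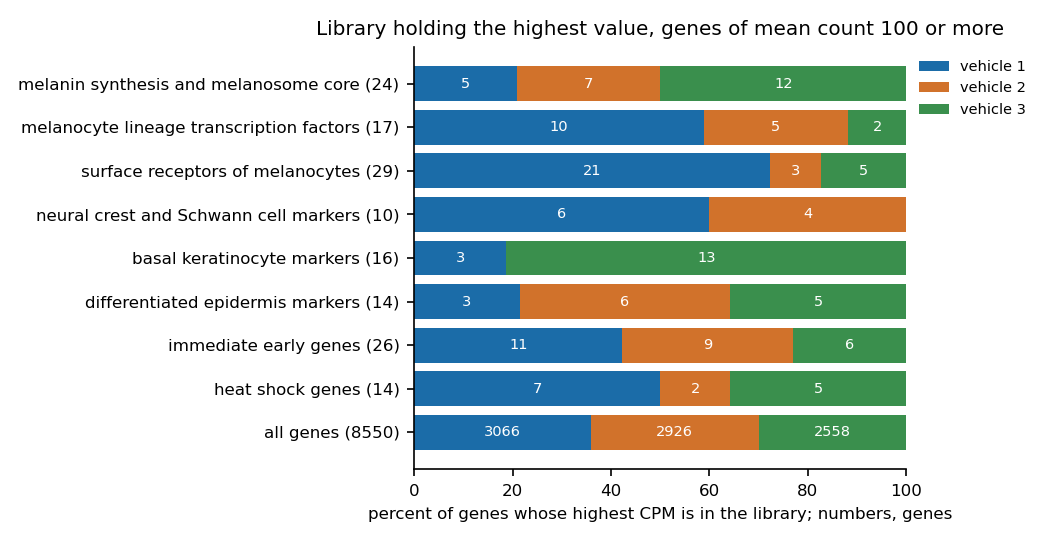
Share of genes, in percent, whose highest CPM lies in each vehicle library, by list and for all 8550 genes with a mean count of 100 or more. Numbers in the bars are genes. Basal keratinocyte markers are highest in vehicle 3 for 13 of 16 and receptors in vehicle 1 for 21 of 29.

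The 6 genes with the largest CV at a mean count of 100 or more were Flg2 (143%), Lpcat1 (113%), Lratd1 (100.5%), Pcdhgc5 (97.9%), Gatb (94.3%) and Cmya5 (91.6%). Lpcat1, a phospholipid acyltransferase, had 45, 231 and 26 counts in vehicle 1, 2 and 3. Lratd1 had 91, 43 and 300 counts. The genes that stood highest in a library, by its CPM over the higher of the other libraries, were Zmynd19, Cenpj, Zfp277 and Rhobtb2 for vehicle 1, at ratios of 2.84 to 3.87. For vehicle 2 they were Flg2, Lpcat1, Pias3 and Atp6v1g2, at 3.66 to 9.28, and for vehicle 3 Pcdhgc5, Lratd1, Rabepk and Eps8l2, at 3.03 to 4.32. All of these averaged less than 6 FPKM. Slc15a2, a peptide transporter picked after its values were seen, was higher in level and had 145, 3210 and 2026 counts, or 2.41, 57.8 and 39.1 FPKM. Vehicle 1 stood apart from the other libraries in this gene.

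Transcripts of Y-linked genes were present in each library, and Xist, the RNA of the inactive X chromosome, was near 0. Ddx3y had 1023, 802 and 768 counts and Kdm5d 427, 416 and 335, whereas Xist had 6, 8 and 7 in vehicle 1, 2 and 3. These genes were picked after their values were seen.

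The vehicle libraries lay beside the treated ones as follows, with no test made here. The pigment list summed to 1680 to 2369 FPKM in IR, 1687 to 2012 in DMBA and 1841 to 1928 in vehicle libraries, and its ranges overlapped. The basal keratinocyte list summed to 781 to 3664 FPKM in IR, 2501 to 3934 in DMBA and 1434 to 2170 in vehicle libraries, and all 3 DMBA libraries lay above the vehicle range. The pigment list divided by that list was 0.458 to 2.37 in IR, 0.436 to 0.674 in DMBA and 0.889 to 1.31 in vehicle libraries. Immediate early genes summed to 6075 to 7265 FPKM in IR, 6276 to 8660 in DMBA and 7250 to 8565 in vehicle libraries, with overlapping ranges. Dct ranked 31 to 58 among all genes in IR, 34 to 44 in DMBA and 27 to 31 in vehicle libraries. The part of the keratinocyte transcripts in any difference between the groups was not tested.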

How the data were processed

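RNA from sorted melanocyte stem cells was sequenced, and the 3 vehicle libraries of 9 were used, grouped by the sample titles. The deposited table gives read counts per gene, not normalized, and FPKM, which the authors derived from those counts, the exonic size and the library total. Recomputing it gave each deposited value within 0.005. The submitters' processing notes name HISAT2 2.0.1, HTSeq 0.6.1, cutadapt 1.9.1 and bcl2fastq 2.17.1.14. Their settings and roles, the strand setting, the annotation and the genome build were not given in the sources used here. Vehicle libraries held 7037979 to 8156905 counts, of which genes without a symbol took 0.121 to 0.142%, and 0 further per-sample columns were left aside. The deposited exonic size in bases is of the authors' making and is used as given.

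Levels are FPKM, and spread is the SD over the mean of CPM. The biological coefficient of variation came from edgeR 4.0.16 (R 4.3.3) with filterByExpr, TMM and a single mean. The estimate was tested on simulated data in which all genes shared a single dispersion, unlike the genes here. No comparison between groups was tested, and no p-value is given. Alternatives changed the threshold, the scale, the scaling (DESeq2 1.42.0 size factors), the genes included and the libraries. Gene types came from GENCODE vM21, where 52083 of 55359 identifiers matched. Promoter windows are from RefSeq, build GRCm38.p6, whose coordinates are not those of the deposited table.

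The members and the 22 gene lists were chosen with earlier results of these data known. The rule named the 5 markers, the 15 highest nuclear genes of 500 bases or more, the 13 mitochondrial protein-coding genes, up to 5 of the highest members of each list with those at 0 counts, the 10 highest transcription factors, the 6 genes of largest CV and 4 genes per library of largest ratio. A few members are not reported here. Tables and plots were made in matplotlib 3.10.9, numpy 2.4.6, pandas 2.3.3 and Python 3.11.15.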

Additional observations from a re-analysis of the deposited data

How the results depend on the processing

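The number of genes at 1 FPKM in all 3 libraries, 11320, lay between 11290 and 12629 under its alternatives. The share of the 100 highest genes, 43.9% of the FPKM sum, was 26.6% by CPM and 32.1% without mitochondrial and short genes. The mean ratio of pigment to basal keratinocyte lists, 1.09, was 0.309 by medians and 0.791 without Dct, and 0.978 to 1.19 with a library left out. Dct's mean rank, 29.7, was 12.7 by CPM and 18 without mitochondrial and short genes. The median CV, 18.6%, was 14.2 to 15.6% with a library left out, which leaves 2 libraries per value, and 21.4 and 12.6% at minimum mean counts of 50 and 500. The biological coefficient of variation, 32.5%, was 30.6 to 33.8% with a library left out, 76.3% with no count filter and 49.0% over all 9 libraries, where each group had its own mean. No paired analysis was possible because no comparison between groups was tested. A count of 0 over the 3 libraries allows up to 0.132 CPM, for counting error only, so lower transcripts were not detectable at this depth. Levels of genes with near-identical copies are uncertain.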
